A study of Danio rerio with 16 samples.

Results

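Regenerating caudal fins of zebrafish at 4 days post-amputation (dpa), the outgrowth stage, were compared with those at 1 dpa, the early wound stage, by whole genome bisulfite sequencing (WGBS) of whole fin tissue. The genome was divided into 500 bp tiles, and a tile entered the comparison where each of the 4 libraries had 10 or more calls in it, a call being 1 read over 1 CpG. This kept 1655472 of the 2631724 tiles that list a CpG (62.9%), chosen by depth and not by level. They held 76.8% of the listed CpGs, between 95.9% and 96.2% of the calls of each library, and a median of 9 CpGs. The level of a tile is the percentage of its calls that read as methylated, and a change of level is given in percentage points (points).

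There were 2 libraries of whole fin at 4 dpa and 2 at 1 dpa, all from adult fish of the strain Tg(sp7:EGFP), whose transgene drives a green fluorescent protein from sp7 regulatory sequence, active in osteoblasts. Amputation was the only treatment, and both groups carried the transgene. The tissue was the regenerate, which the study describes as blastema together with wound epidermis, so fewer cells of a type and less methylation per cell cannot be told apart in any value below. The study calls the libraries of a group biological replicates. It gives the number of fins per replicate for the sorted cells, but not for whole fin. Whether the 2 whole fin libraries of a time shared any fish is not stated, and p-values measure only the spread between these samples. The series holds 16 libraries in 8 groups of 2; the others are whole fin at 0 dpa (uninjured) and 2 dpa, and cells sorted as EGFP-positive (sp7+) or EGFP-negative (sp7-) from fins at 4 dpa and at 0 dpa. The files hold DNA methylation alone, so the tissue could not be checked against marker transcripts.

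In vertebrates most CpGs carry a methyl group on the cytosine, which is copied to the new strand when DNA is replicated and is lost where copying lags behind or where enzymes remove it. CpG-rich promoters and many active enhancers are the usual exceptions and hold little methylation. A zebrafish fin closes its wound with epidermis soon after amputation, then gathers a blastema of dividing cells under it, and by the outgrowth stage that blastema has grown and its cells have begun to form new bone, vessels and connective tissue.

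The 4 dpa libraries had 138782937 and 129295312 calls and the 1 dpa libraries had 127313121 and 146470717, a mean coverage of 5.31× to 6.10× over 23997221 CpGs. A median tile had 56 and 51 calls in the 4 dpa libraries and 51 and 58 in the 1 dpa libraries. Tiles whose shallowest library had 10 calls, just inside the limit, changed by -3.39 points between the times (43032 tiles), and those with 9 calls, just outside it, by -3.39 points (44691 tiles). Reads carried no molecular identifiers, so depth speaks for counting error only.

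Whole fins were less methylated at 4 dpa than at 1 dpa. Summed over the tiles, the level was 76.2% and 76.9% in the 4 dpa libraries and 79.1% and 79.3% in the 1 dpa libraries. Fins at 4 dpa averaged 76.5% ± 0.435 and fins at 1 dpa 79.2% ± 0.136 (here and below, ± is the SD of the 2 libraries of a group), a change of -2.62 points, and the 4 pairs of libraries gave -3.03 to -2.22 points. Both 4 dpa libraries lay below both 1 dpa libraries, and the gap was larger than the spread within either time. With 2 libraries against 2, the two-sided exact permutation test cannot go below p = 0.333, which it gave here. The mean of the tile levels, which gives every tile the same weight, fell further, by 3.06 points. Across the time course, the 0 dpa libraries stood at 77.5% and 77.2% over the same tiles, the 1 dpa libraries at 79.1% and 79.3%, the 2 dpa libraries at 78.1% and 78.5% and the 4 dpa libraries at 76.2% and 76.9%, so the 1 dpa libraries were the highest of the 8 and the 4 dpa libraries the lowest.

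Among deeply read CpGs, fewer were highly methylated at 4 dpa, and more were at intermediate levels. Of the 23997221 listed CpGs, 2742407 had at least 10 reads in each of the 4 libraries, and only these were classed. Those at a level of 75% or more made up 70.3% ± 0.125 in 4 dpa fins and 75.9% ± 0.0528 in 1 dpa fins. Those between 25% and 75% made up 21.1% ± 0.254 in 4 dpa fins and 15.8% ± 0.122 in 1 dpa fins. The share under 25% differed little, being 8.65% ± 0.129 of CpGs in 4 dpa fins and 8.30% ± 0.0692 in 1 dpa fins. In tiles that were unmethylated in uninjured fin (under 10% at 0 dpa), the level was 2.29% and 2.20% in the 4 dpa libraries and 2.22% and 2.21% in the 1 dpa libraries. The libraries of the times overlapped there.

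The size of the fall depended on the level a tile started from. To keep noise in the 1 dpa level from passing as change, tiles were put in bins of 10 points by one 1 dpa library, and the change was taken between the 4 dpa libraries and the other 1 dpa library, both ways round. Tiles that started between 60% and 70% changed the most, by -4.38 points (the pairs of libraries gave -4.51 to -4.27). Tiles between 70% and 80% changed by -4.33 points and those between 50% and 60% by -3.62 points. At the top, tiles between 80% and 90% changed by -3.44 points and tiles between 90% and 100% by -2.33 points (pairs, -2.54 to -2.12). Below the middle the fall shrank, to -2.14 points between 40% and 50% and -0.778 points between 30% and 40%. Between 10% and 30% the pairs gave both signs, and tiles under 10% differed by 0.164 points (0.0920 to 0.236). The fall thus belonged to tiles that were already partly or mostly methylated, with the largest change at intermediate to high levels.

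The choice of library for the bins decided the order at the top of this scale. With bins set by the uninjured fins, which enter neither side of the difference, tiles between 60% and 70% changed by -5.03 points and tiles between 90% and 100% by -1.76 points. Bins set by sorted sp7- cells of uninjured fins, an alternative added after the data were seen, gave changes of -5.36 and -1.80 points. Bins set by both 1 dpa libraries, which also enter the difference, gave changes of -2.21 and -4.09 points, the opposite order. In those last bins the noise of the 1 dpa libraries enters both the bin and the difference.

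Tiles with few CpGs fell more than tiles with many. Tiles that list 1 to 2 CpGs stood at 67.3% ± 0.0834 in 4 dpa fins and 72.2% ± 0.364 in 1 dpa fins, a change of -4.94 points (pairs, -5.25 to -4.62). The change shrank with each step in CpG number, to -4.23 points for 3 to 4 CpGs, -3.70 for 5 to 7, -3.12 for 8 to 12 and -2.46 for 13 to 20. Tiles with over 20 CpGs stood at 75% ± 0.921 in 4 dpa fins and 76.4% ± 0.671 in 1 dpa fins, a change of -1.42 points. In that last class the pairs of libraries ranged from -2.55 to -0.294 points, so its size is the least certain of the 6, although both 4 dpa libraries still lay below both 1 dpa libraries. The difference between the sparsest and the densest class was -3.52 points. Tiles of 1 to 2 CpGs are few (18930, or 1.14% of the tiles), with a median of 17.3 calls per library against 172 in tiles with over 20 CpGs.

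**Figure D1:**
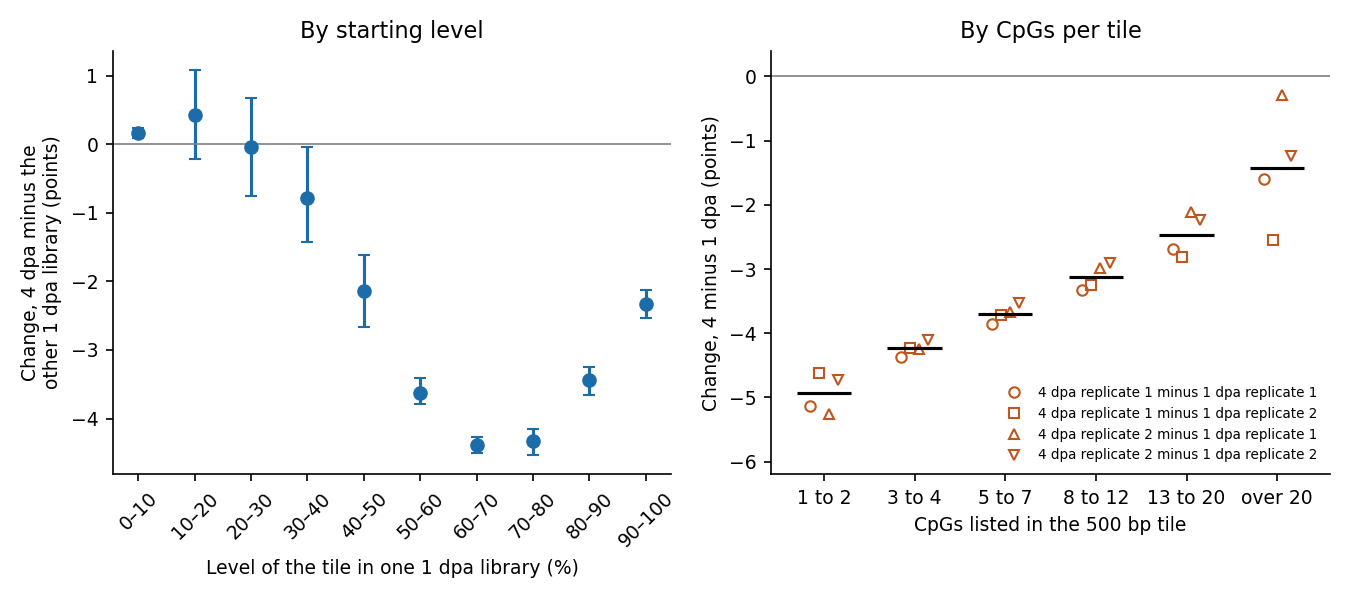
The left plot gives the change of level in points for tiles binned by their level in one 1 dpa library (x axis, %), as 4 dpa minus the other 1 dpa library, with bars from the lowest to the highest of the 4 pairs of libraries. The right plot gives the change for tiles binned by the number of CpGs they list, with 1 symbol per pair of libraries and a line at the mean: the falls are deepest between 60% and 80% (-4.38 and -4.33 points) and in tiles of 1 to 2 CpGs (-4.94 points).

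The step with CpG number held within highly methylated tiles. Among tiles at 80% or more at 1 dpa, those with 1 to 2 CpGs stood at 82.7% ± 0.267 in 4 dpa fins and 89.0% ± 0.431 in 1 dpa fins, a change of -6.28 points. Those with 8 to 12 CpGs changed by -3.62 points, and those with over 20 CpGs stood at 89.3% ± 0.148 in 4 dpa fins and 91.0% ± 0.111 in 1 dpa fins, a change of -1.67 points. Here the densest tiles separated clearly, with pairs between -1.85 and -1.48 points. These tiles were taken by the 1 dpa level itself, so the noise of the 1 dpa libraries enters these falls, and tiles with few CpGs have the fewest calls. In bins set by the library that did not enter the difference, tiles starting between 60% and 70% changed by -6.17 points with 1 to 2 CpGs, -4.07 with 8 to 12 and -2.76 with over 20. Tiles starting between 90% and 100% changed by -3.76, -2.42 and -1.35 points in the same 3 classes. At each starting level from 40% up, tiles with 1 to 2 CpGs fell further than tiles with over 20. Bins of sparse tiles rest on fewer calls and so mix more starting levels.

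**Figure D2:**
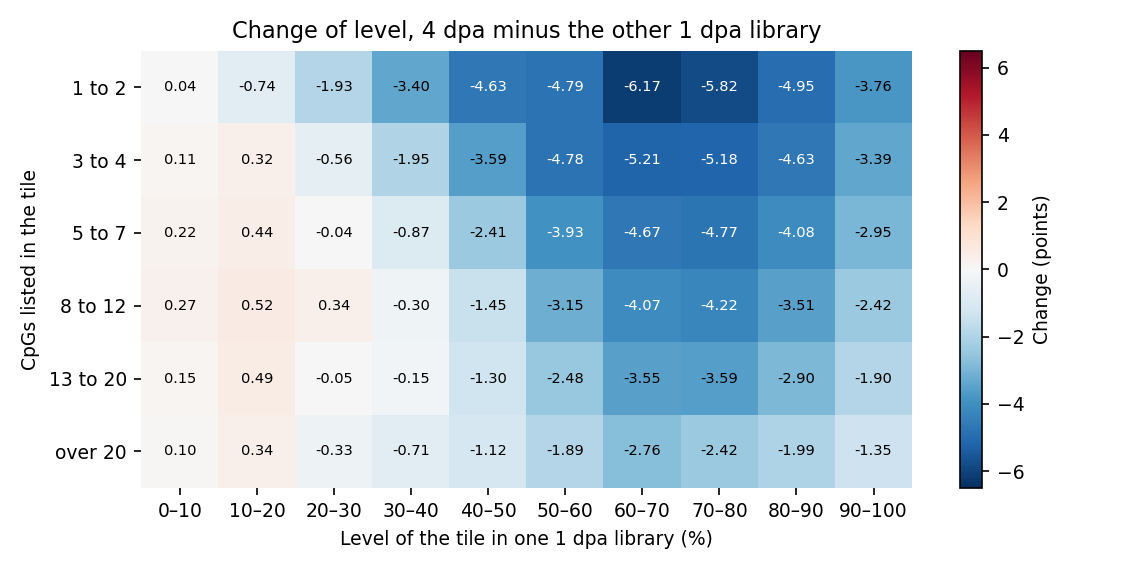
Change of level in points (colour and printed value), as 4 dpa minus the other 1 dpa library, for tiles grouped by their level in one 1 dpa library (columns, %) and by the CpGs they list (rows). The deepest fall, -6.17 points, is in tiles of 1 to 2 CpGs that started between 60% and 70%, and the values in the columns under 20% stay between -0.739 and 0.518 points.

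The fall was spread over the whole genome. On each of the 25 chromosomes both 4 dpa libraries lay below both 1 dpa libraries, with changes between -2.85 points on chromosome 7 and -2.39 points on chromosome 12. Of 13301 windows of 100 kb, 98.9% were lower at 4 dpa, with a median change of -2.70 points and 90% of windows between -4.60 and -0.820 points. The libraries of the times did not overlap in 90.7% of windows on the lower side and in 22 windows (0.165%) on the higher side. The changes of the windows varied with an SD of 1.16 points, against an SD of 1.26 points for the difference between the 4 dpa libraries and 1.04 points for that between the 1 dpa libraries. The change is one of means of 2 libraries and the other differences are of single libraries, so these SDs are not like for like. Taking separate pairs of libraries, the windows' changes correlated at r = 0.360 for pairs of the same number and 0.319 for crossed pairs. These are descriptions over windows of shared libraries, and windows are not replicates.

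The windows at the ends of this range were read deeply. The deepest fall was at chr5:15700000-15799999, at 68.3% and 68.4% in the 4 dpa libraries and 77.0% and 75.4% in the 1 dpa libraries, a change of -7.86 points. Windows at chr4:10900000-10999999 and chr20:8400000-8499999 changed by -7.57 and -7.20 points. The largest rise was at chr23:35900000-35999999, a window of low methylation, with 28.7% and 30.2% in the 4 dpa libraries and 25.5% and 27.1% in the 1 dpa libraries, a change of 3.13 points. Rises of 2.61 and 2.44 points were found at chr5:6000000-6099999 and chr12:600000-699999. These 6 windows were picked after their values were seen. Positions follow the authors' build, GRCz10 with the variants of the strain, and whether they count from 0 or 1 was not settled. No annotation of that build was used here, so genes are not named.

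Single tiles varied more than the shift between the times. The median tile changed by -2.49 points, with the middle 50% of tiles between -6.98 and 1.07 points, and 67.8% of tiles were lower at 4 dpa and 31.9% higher. The SD of the changes was 7.62 points. The libraries of one time differed from each other with an SD of 10.2 points at 4 dpa and 9.24 points at 1 dpa, though these are differences of single libraries and the change is one of means. Both 4 dpa libraries lay below both 1 dpa libraries in 514552 tiles (31.1%) and above them in 147796 (8.93%).

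Tiles were tested with limma on the transformed level, with weights for coverage, and called where the p adjusted after Benjamini-Hochberg was under 0.05 and the difference exceeded 25 points. Of 1655472 tiles, 372 were called (0.0225%), 340 lower at 4 dpa (0.0205%) and 32 higher (0.00193%). An unadjusted p under 0.05 was reached by 171652 tiles (10.4%). The smallest adjusted p was 0.0101. Without any 1 of the 4 libraries, in fits where the lone library is assumed to vary like the other time, limma called 0 tiles, with 114574 to 139557 at an unadjusted p under 0.05. Such fits take the spread from the other time alone and hold 1 library fewer. A loss of calls there cannot be told apart from that, so these counts do not show whether a change is stable. A beta-binomial test with 1 spread for all tiles called 4896, of which 4193 were lower.

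Tiles were then asked to move beyond others of the same starting level. The median change of their 10-point bin of 1 dpa level was taken off, which ranged from 1.70 points in tiles between 20% and 30% to -3.05 points in tiles between 90% and 100%. These bins were set by both 1 dpa libraries, which also enter the difference, so noise in those libraries enters the medians. Where one 1 dpa library set the bins and the other entered the difference, the mean changes of these 2 bins were -0.0439 and -2.33 points. No tile was called in this test by limma (0 of 1655472, 0%), in either direction. The smallest adjusted p was 0.0585, and 116182 tiles (7.02%) had an unadjusted p under 0.05. The count of 0 stood close to the threshold, and other settings gave some calls. With the spread taken from all 8 whole fin libraries, limma called 26 tiles, 25 of them lower. With bins by all 4 libraries it called 9, and with bins by the uninjured fins 8. The beta-binomial test called 2127, of which 1630 were lower. All 26 tiles of the 8-library fit were among both the 372 and the 2127.

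Without a test, 9123 tiles (0.551%) had libraries that did not overlap and lay over 25 points below the median of their bin, and 3302 (0.199%) lay over 25 points above it. These were sparsely read tiles, with a median of 22.3 and 21 calls per library against 54.8 over all tiles, and 6 CpGs against 9. The tiles far below their bin averaged 45.4% ± 0.983 in 4 dpa fins and 77.2% ± 0.869 in 1 dpa fins, and those far above it 72.7% ± 0.434 in 4 dpa fins and 43.5% ± 1.26 in 1 dpa fins, over the 7011 and 2375 of them with enough calls in all 16 libraries. These levels follow from how the tiles were taken. In the sorted cells their medians went the same way by less. Between 4 and 0 dpa, tiles far below their bin changed by a median of -4.47 points in sp7- cells and -5.31 points in sp7+ cells, against -1.56 and -1.79 points over all tiles. Tiles far above it changed by 2.81 points in sp7- cells and 2.37 points in sp7+ cells. By direction, the tiles far below their bin stood near all tiles. Of them, 67.4% were lower in sp7- cells and 71.3% in sp7+ cells, against 65.0% and 68.3% of all tiles. Of the tiles far above it, 60.6% and 59.5% were higher, against 34.9% and 31.7% of all tiles. In uninjured fins 14.3% of the tiles far below their bin and 17.2% of those far above it stood at 80% or more, against 58.7% of all tiles. The shares of all tiles are thus not matched for level. All 4 libraries of each cell type were absent from the choice of tiles.

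The 340 tiles called lower were well read. They had a median of 12 CpGs and 117 calls per library, against 9 and 54.8 over all tiles. Coverage weighed in the test, so the depth and CpG number of called tiles follow in part from how they were chosen. At 1 dpa, a level that took part in the calls, 80.3% of the tiles called lower stood at 80% or more, against 65.4% of all tiles. In uninjured fins, which took no part, 18.6% of them stood at 80% or more, against 58.7% of all tiles, and 65.2% between 60% and 80%, against 27.2%. Tiles chosen for a wide gap between 2 times are likely to hold other times between them. The uninjured levels of the tiles called lower, and of those called higher, follow in part from that. They lay on all 25 chromosomes, between 11.2 per 100000 tiles on chromosome 4 and 35.0 on chromosome 10, and no 2 of them touched. Within 1000 bp of a tile under 20% in uninjured fin lay 2.65% of them, against 7.69% of all tiles. Of the tiles called lower, 0.885% were themselves under 20% in uninjured fin, against 3.84% of all tiles. A call lower needs a 1 dpa level over 25 points, so these shares are not matched for level. The 32 tiles called higher had a median of 12.5 CpGs and 71.9 calls and lay on 18 chromosomes. At 1 dpa, again a level that took part in the calls, 53.1% of them stood under 20% and 43.8% between 20% and 40%, against 3.58% and 2.66% of all tiles. In uninjured fins 10% of them stood under 20% and 63.3% between 20% and 40%, against 3.84% and 3.13% of all tiles. Of the tiles called higher, 21.9% lay within 1000 bp of a tile that was low in uninjured fin. That share is not matched for level either.

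Tiles next to the called tiles changed by less than the called tiles did. Next to tiles called lower, 468 neighbouring tiles changed by a median of -8.17 points, and 83.5% of them were lower at 4 dpa. At 3000 to 5000 bp, the median was -2.53 points and 66.2% were lower, against -2.49 points and 67.8% over all tiles. Next to tiles called higher, 47 neighbours changed by a median of 1.64 points and 61.7% of them were higher. At 3000 to 5000 bp from those, the median was -1.85 points and 34.0% were higher. Reads that cross a tile edge give calls to both tiles, so neighbours share part of their data. Called tiles were chosen for a wide gap in these libraries and their neighbours were not. A smaller change beside them follows in part from that choice, so the width of the changes was not tested.

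**Figure D3:**
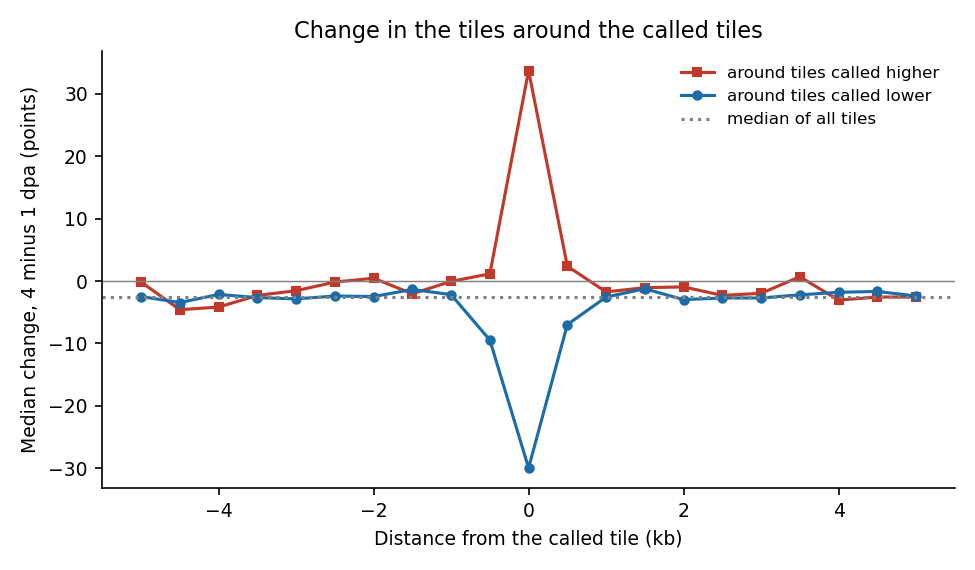
Median change of level, 4 minus 1 dpa (y axis, points), in the called tile (distance 0) and in tiles up to 5 kb to either side (x axis), for the 32 tiles called higher and the 340 called lower; the dotted line is the median of all tiles, -2.49 points. The change at the called tile, 33.7 or -30.0 points, falls back near the dotted line within 1 kb.

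The tiles with the deepest falls illustrate the range. Because no tile was called beyond the median of its bin, the rule for naming tiles was applied, after the values were seen, to the 372 called tiles with 20 or more calls in each library and no overlap: 331 lower and 25 higher, of which the 10 with the largest excess over their bin in each direction were taken. In 1000 bp tiles some of these changes were much smaller, at -9.93 points for the fall at chr14:41865500-41865999 and between 10.02 and 13.8 points for the 3 largest rises, and those 4 were no longer called. The 10 falls ranged from -53.0 to -45.4 points and the 10 rises from 33.7 to 50.3 points. Adjusted p below is from limma with Benjamini-Hochberg adjustment over all tiles.

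At chr22:34125000-34125499, with 9 CpGs and 34 to 49 calls per library, the level was 38.2% in each 4 dpa library and 87.5% and 93.9% in the 1 dpa libraries. This change of -52.5 points (adjusted p = 0.0192) left no overlap, and all 6 CpGs with 5 or more reads at both times were lower at 4 dpa. Uninjured fins stood between, at 69.6% and 62.1%. At chr14:41865500-41865999, with 16 CpGs, the level was 37.1% and 46.3% in the 4 dpa libraries and 89.1% and 93.8% in the 1 dpa libraries, a change of -49.7 points (adjusted p = 0.0117). Of its 9 CpGs with 5 reads at both times, 8 were lower at 4 dpa and 1 was 100% at both. At chr4:11041000-11041499, with 9 CpGs and 80 to 129 calls, the level was 37.5% and 56.6% in the 4 dpa libraries and 95% and 90.1% in the 1 dpa libraries, a change of -45.5 points (adjusted p = 0.0101). All 8 of its CpGs with 5 or more reads at both times were lower at 4 dpa. They stood at 39.4% to 59.1% against 83.3% to 100%. Such reads were summed over the 2 libraries of a time. CpGs that lie close together can sit on the same reads, here and at the other named tiles. Their calls are then not independent, so counts of CpGs with the same direction are descriptions. These 3 tiles were among the 26 called beyond their bin in the 8-library fit.

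Other falls were of the same kind but with more spread. The deepest, at chr22:17703000-17703499, stood at 27.3% and 56.7% in the 4 dpa libraries and at 92.6% and 97.4% in the 1 dpa libraries, a change of -53.0 points (adjusted p = 0.0381). It had 22 to 38 calls per library, and only 4 of its 8 CpGs had 5 or more reads at both times, all lower at 4 dpa. The 4 dpa libraries there differed from each other by more than at any other of the 10 falls but 1, the tile at chr18:1663500-1663999, with 30% and 70.3% in the 4 dpa libraries and 94.6% and 96.4% in the 1 dpa libraries. At chr11:772500-772999 the libraries were close, at 30.9% and 34.0% in the 4 dpa libraries and 83.8% and 76.5% in the 1 dpa libraries. At chr7:17706500-17706999 the level was 0% and 5% in the 4 dpa libraries and 41.4% and 55.2% in the 1 dpa libraries. That tile lists 29 CpGs but had 20 to 29 calls, and the 1 CpG with 5 reads at both times was higher at 4 dpa, so its value rests on CpGs read few times each.

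Among the rises, the largest was at chr4:236000-236499, with 10 CpGs, at 69.8% and 60% in the 4 dpa libraries and 16.7% and 12.5% in the 1 dpa libraries, a change of 50.3 points (adjusted p = 0.0463). That tile had 24 to 43 calls per library, and only 3 of its CpGs had 5 or more reads at both times, all higher at 4 dpa. At chr3:54401500-54401999 the level was 59.6% and 72.3% in the 4 dpa libraries and 14.9% and 30% in the 1 dpa libraries, a change of 43.5 points (adjusted p = 0.0433), and all 9 of its CpGs were higher at 4 dpa. At chr5:24378000-24378499, the rise with the smallest adjusted p of the 10 (0.0142), it was 40% and 48.7% in the 4 dpa libraries and 0% and 4.65% in the 1 dpa libraries. The uninjured fins disagreed there, at 0% and 37.1%. At chr14:38431500-38431999 the libraries of each time were close, with 71.7% and 70.2% in the 4 dpa libraries and 32.9% and 29.5% in the 1 dpa libraries. The tile at chr14:31276000-31276499 has 16 CpGs and 81 to 139 calls. Its level was 62.5% and 64.0% in the 4 dpa libraries and 25.9% and 33.1% in the 1 dpa libraries. All 15 of its CpGs with 5 or more reads at both times were higher at 4 dpa.

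**Figure D4:**
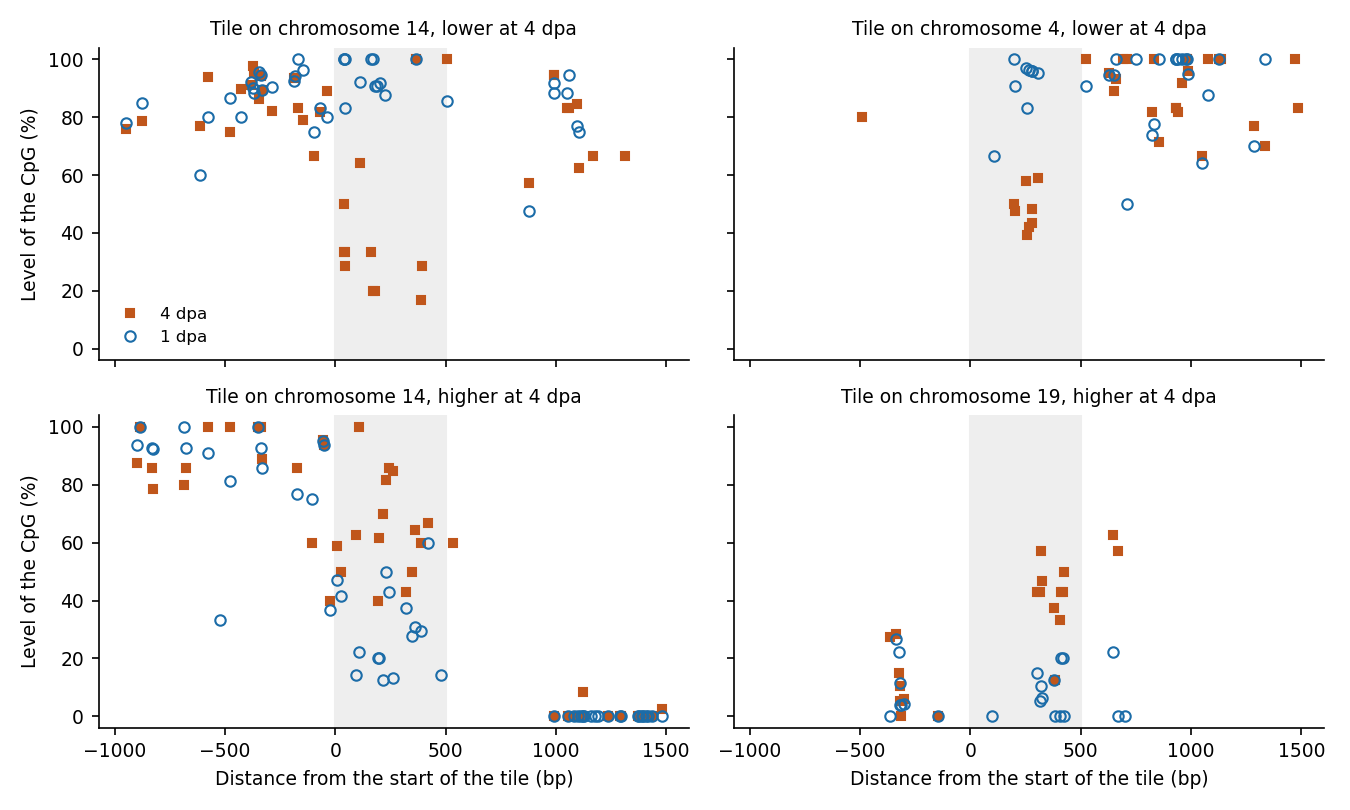
Level of single CpGs (y axis, %) by distance from the start of the tile (x axis, bp), summed over the 2 libraries at 4 dpa (squares) and at 1 dpa (circles) where they had 5 or more reads, for 2 falls and 2 rises with the most such CpGs; a further fall, at chr18:1663500-1663999, ties with the second at 8 CpGs, of which 7 are lower at 4 dpa, and is not drawn. The shaded band is the 500 bp tile. Inside the tiles 8 of 9 and 8 of 8 CpGs are lower at 4 dpa in the falls. In the rises, 15 of 15 and 10 of 10 are higher. The tiles were chosen for a wide gap in these same libraries, so the direction of their CpGs follows in large part from that choice. CpGs that lie close together can sit on the same reads, so these counts are not of independent observations. The CpGs within 1000 bp outside the tiles go both ways. At the falls 15 are lower and 12 higher, and 8 lower and 9 higher. At the rises 9 are higher and 6 lower, and 6 higher and 3 lower.

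Most called tiles had the same direction in sorted cells, whose libraries had no part in the choice. At the tiles called lower, 4 dpa sp7- cells averaged 55.4% ± 6.37 and 0 dpa sp7- cells 66.4% ± 0.723. There, 4 dpa sp7+ cells averaged 65.5% ± 0.792 and 0 dpa sp7+ cells 77.3% ± 0.871, over the 339 tiles that every library of the series covered with enough calls. The sp7- libraries at 4 dpa differed, at 59.9% and 50.9%, but both lay below the sp7- libraries at 0 dpa, at 66.9% and 65.9%. Of the 340 tiles, 308 were lower at 4 dpa in sp7- cells (90.6%, against 65.0% of all tiles) and 318 in sp7+ cells (93.5%, against 68.3%). By the methods, both cell types were sorted from the same suspensions of dissociated fins. They can thus share fish and are not 2 separate agreements. The median change was -10.3 points in sp7- cells and -12.8 points in sp7+ cells, against -1.56 and -1.79 points over all tiles. In uninjured fins 18.6% of the tiles called lower stood at 80% or more, against 58.7% of all tiles, so these comparisons are not matched for level.

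At the tiles called higher, 4 dpa sp7- cells averaged 47.7% ± 8.76 and 0 dpa sp7- cells 37.1% ± 2.63. There, 4 dpa sp7+ cells averaged 32.7% ± 5.50 and 0 dpa sp7+ cells 21% ± 1.99, over 30 tiles. Of the tiles with 10 calls, 27 of 31 were higher at 4 dpa in sp7- cells (87.1%, against 34.9% of all tiles) and 29 of 32 in sp7+ cells (90.6%, against 31.7%). In uninjured fins 0% of the tiles called higher stood at 80% or more, against 58.7% of all tiles. The shares of all tiles are thus not matched for level, and the change over all tiles depended on level. The means of the sorted cells differed by less than those of whole fin at 4 and 1 dpa. The series holds no sorted cells at 1 dpa, so the change in sorted cells is between 4 and 0 dpa. Among the named tiles, 8 of 10 falls were lower at 4 than at 0 dpa in sp7- cells and 8 of 10 in sp7+ cells, and 10 of 10 rises were higher in sp7- cells and 8 of 10 in sp7+ cells. Over all tiles, 65.0% were lower in sp7- cells and 68.3% in sp7+ cells, and 34.9% and 31.7% were higher. For 10 tiles, the counts of falls are not far from those shares.

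The called tiles also differed between the cell types in uninjured fins. At the tiles called lower, sp7+ cells exceeded sp7- cells at 0 dpa by a median of 11.9 points, against 0.420 points over all tiles, and were higher in 91.2% of these tiles, against 54.8% of all. At the tiles called higher, sp7+ cells lay below sp7- cells by a median of 18.7 points and were lower in 93.8% of the tiles, against 45.1% of all. In 12 of these 32 tiles the gap was over 20 points (37.5%, against 1.08% of all tiles). The called tiles and all tiles stood at different levels in uninjured fins, so these comparisons are not matched for level. The part of the make-up of cell types in the changes was not tested.

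**Figure D5:**
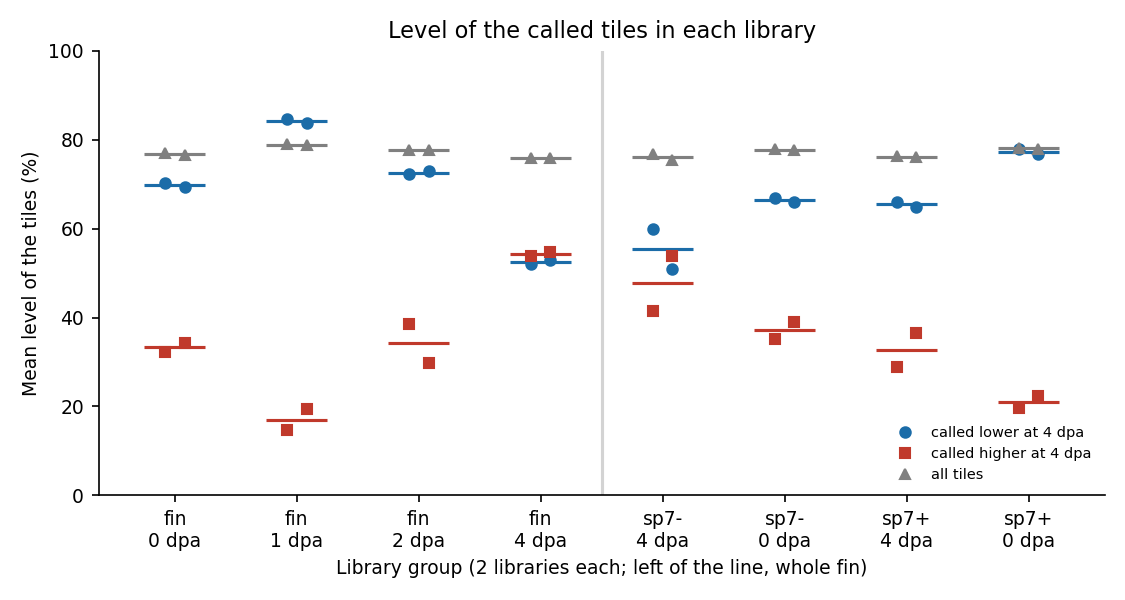
Mean level (y axis, %) of the tiles called lower, the tiles called higher and all tiles in each of the 16 libraries (points; lines are group means of 2 libraries), with whole fin by time to the left of the grey line and sorted cells at 4 dpa and 0 dpa to the right. Tiles called lower stand at 52.5% in 4 dpa and 84.2% in 1 dpa whole fin, and at 55.4% and 66.4% in sp7- cells at 4 and 0 dpa.

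Across the time course, the tiles called lower averaged 69.7% ± 0.673 in uninjured fins, 84.2% ± 0.511 in 1 dpa fins, 72.6% ± 0.577 in 2 dpa fins and 52.5% ± 0.561 in 4 dpa fins. The tiles called higher averaged 33.3% ± 1.41 in uninjured fins, 17.0% ± 3.36 in 1 dpa fins, 34.2% ± 6.21 in 2 dpa fins and 54.2% ± 0.535 in 4 dpa fins. The 0 dpa level lay between those of 4 and 1 dpa in 335 of 339 tiles called lower and 28 of 30 called higher that had 10 calls at 0 dpa. Over all tiles with such calls it lay between them in 38.2%. Tiles chosen for a wide gap between 2 times are likely to hold the other times between them, so this order is a description. The 2 dpa libraries, which also took no part in the choice, stood close to the 0 dpa libraries at both kinds of tile, and 66.1% of the tiles called lower were higher at 2 than at 0 dpa, against 54.1% of all tiles.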

How the data were processed

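The deposited values were raw counts: at every CpG the authors gave how many reads covered it and how many of these were methylated, with no normalization. Per the labels and the methods, the authors trimmed reads with Trim Galore 0.4.1, mapped them with Bismark 0.16.1 and Bowtie2 to GRCz10 carrying the variants of the strain, and removed duplicates. Uneven coverage and reads lost at repeats therefore limit which tiles can be compared.

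Counts were summed in 500 bp tiles with Python 3.11.15 and numpy 2.4.6. The arcsine square root of (methylated + 0.5)/(calls + 1) was fitted per tile with weights for coverage and 1 mean per time. The fit was written in Python, and only the shrinkage of variances used limma 3.58.1 under R 4.3.3 (squeezeVar with a trend), so "limma" means this test. P-values were adjusted by Benjamini and Hochberg over all tiles, and calls needed a difference over 25 points. The test was checked on simulated data. Tiles were named by excess over the bin median, as described in the text. Alternatives were another test, spread, minimum of calls, tile size, difference and bins, a replicate block, and leaving out each library. The tiles, lists and tests were chosen with earlier results of these data known. Planned comparisons of listed genes were not run, for want of an annotation of GRCz10.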

Additional observations from a re-analysis of the deposited data

How the results depend on the processing

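The genome-wide change kept its sign and size under all 8 alternatives, between -2.32 and -3.06 points. The difference in change between tiles starting at 60% to 70% and at 90% to 100% was -2.05 points, and -1.92 and -2.18 points without a 4 dpa library. It was -3.28 points with bins by uninjured fins, -3.98 with bins by all 4 libraries and -3.56 with bins by sp7- cells at 0 dpa (added after the data were seen), and it turned round, to 1.88, with bins by the 1 dpa libraries that enter the difference, where noise in those libraries enters both sides. The difference between tiles of 1 to 2 and over 20 CpGs was -3.52 points, between -2.78 and -4.25 points when leaving out each library, and -4.61 within tiles at 80% or more at 1 dpa. The count of called tiles, 372, was 4896 by the beta-binomial test, 687 with all 8 whole fin libraries, 631 at 20 calls, 608 and 44 with differences over 10 and 40 points, 598 in 1000 bp tiles, and 0 in each fit leaving out a library. The 8-library fit shared 359 tiles with the 372, which is 96.5% of the 372 and 52.3% of its 687. Beyond the bin median the count, 0, was 2127, 26, 28 (20 calls), 18 (1000 bp tiles), 9 and 8 (bins by all 4 libraries and by uninjured fins) and 51 with 1 median for all tiles. With the replicate number as a block, the limma counts were 3668 and 1183. With 1 residual degree of freedom, limma there gave each tile the common spread (an infinite prior), as the beta-binomial test does, so these counts cannot be set against 372 and 0 as an effect of the block alone. The labels tie same-numbered libraries by a number alone. Deviations of same-numbered libraries from their group means correlated at 0.00272 over tiles. Counting error of single tiles weighs on that value, so it cannot show that nothing else is shared. In tiles with over 20 CpGs, replicate 2 stood above replicate 1 at 4 dpa (75.7% against 74.4%) and at 1 dpa (76.9% against 76.0%). It also did in tiles of 13 to 20 CpGs (78.8% against 78.3% at 4 dpa, 81.07% against 80.95% at 1 dpa). The level summed over all tiles had the same order (76.9% against 76.2%, 79.3% against 79.1%). In the classes from 3 to 12 CpGs and in the mean of tile levels, replicate 2 stood above at 4 dpa and below at 1 dpa. With 1 to 2 CpGs it stood below at both times. The share of lower among called tiles was 85.6% to 92.2%, except 77.3% over 40 points. The 10 named tiles followed through all alternatives, 5 falls and 5 rises, kept their direction in each. All 10 lost their call when any 1 library was left out, where nothing was called, while the falls stayed between -38.3 and -67.7 points and the rises between 32.4 and 55.2. In 1000 bp tiles 1 fall and 3 rises lost their call, at -9.93, 10.02, 12.6 and 13.8 points, and 2 falls shrank to -25.8 and -25.5 points. At 40 points, 2 rises of 39.7 and 37.6 points lost it. A tile of 10 calls in a library cannot show a change of a few points.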

Other observations

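At some named tiles libraries of 1 group stood far apart. At chr18:1663500-1663999, sp7- cells stood at 95% and 50% at 4 dpa and at 84.6% and 41.9% at 0 dpa, with replicate 1 above replicate 2 at each time, while sp7+ cells stood at 77.3% and 62.7% at 4 dpa and at 96.3% and 97.1% at 0 dpa. At chr11:772500-772999, sp7- cells stood at 70.3% and 34.6% at 4 dpa and at 73.6% and 62.2% at 0 dpa. At chr7:17706500-17706999, the sorted cells did not follow the fall of the whole fin, with means of 42.3% at 4 dpa and 40.8% at 0 dpa in sp7- cells and 37.0% at 4 dpa and 36.9% at 0 dpa in sp7+ cells.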
